A study of Homo sapiens with 30 samples.

Results

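The response of A673 cells to 3 days of BET inhibition was measured by RNA sequencing. A673 is an established human Ewing sarcoma line, and its genotype is labelled EWS::FLI1. The 6 libraries described here are the 3 labelled A673 at 3 days with BMS-986158 and the 3 labelled A673 at 3 days with DMSO, out of 30 libraries in 10 groups. Treated cells received 5 nM BMS-986158 for 72 hours. Vehicle cells received the solvent DMSO. All 6 libraries came from the same line, were labelled batch 1, and were grown in RPMI1640 with serum and glutamine. The other libraries used for comparison are the 12 of CHLA10 and TC32 at 3 days, which carry the same genotype label and received the same agents. CHLA10 was kept in IMDM, so for that line the cell line and the medium cannot be told apart. The sources used here do not say whether the 3 replicates of a group were grown as separate cultures, so the p-values describe the spread among the libraries at hand, and that spread could be technical.

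BET proteins, such as BRD2 and BRD3, bind acetylated lysines on histones and help to recruit the elongation factor P-TEFb to promoters and enhancers. BMS-986158 occupies their bromodomains and displaces them from chromatin. In Ewing sarcoma the fusion protein EWS::FLI1 acts as an aberrant transcription factor that activates and represses large sets of genes, and BET proteins have been described as its cofactors. The title of the series concerns focal adhesion kinase, the product of PTK2, in cells exposed to a BET inhibitor.

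Total counts were 17374565, 24913023 and 48949739 in the BMS-986158 libraries and 16479670, 22967877 and 24713876 in the DMSO libraries. DMSO replicate 3 stood apart from the other vehicle libraries. The SD of its log2 differences to the rest of its group was 0.684, against 0.517 and 0.48 for DMSO replicates 1 and 2, and 0.445, 0.398 and 0.367 for the BMS-986158 libraries. Mitochondrially encoded genes took 2.0% of its counts, against 5.31% and 5.53% in the other vehicle libraries and 2.83%, 4.7% and 4.82% in the treated libraries. Values are from the fit with all 3 vehicle libraries unless stated. The comparison was also fitted without it and with it as the one vehicle library, and counts or named genes that turned on it are given with those values; in that last fit its variance is assumed to be that of the other groups. Markers of Ewing sarcoma identity summed to 2685, 2736 and 2688 CPM (a gene's counts scaled to a common library total) in treated cells and 3437, 3456 and 3398 CPM in vehicle cells. Of the 8 epithelial, 9 immune, 6 endothelial and 7 fibroblast markers listed, 3, 4, 4 and 7 could be tested. Their summed levels ranged over 0.830 to 1.28 CPM under BMS-986158 and 1.96 to 2.89 CPM under DMSO for epithelial markers, and over 8.93 to 10.5 and 17.1 to 35.8 CPM for immune markers. The endothelial sums were 26.8 to 29.04 CPM under BMS-986158 and 48.6 to 53.1 CPM under DMSO, and the fibroblast sums were 183.3 to 187.6 and 165 to 206.5 CPM. KRT14, GRHL2, CD3E, LYZ and MS4A1, which define epithelial and immune cells, were at 0 in all 6 libraries. Other markers were detected and called lower, among them the B cell gene CD79A at 4.55, 3.51 and 5.26 CPM in treated cells and 22.7, 24.3 and 12.9 CPM in vehicle cells. The epithelial gene EPCAM was at 0.0607 to 0.398 CPM in treated cells and 1.13 to 1.47 CPM in vehicle cells, a call lost without treated replicate 3 and against DMSO replicate 3 alone, and the endothelial gene PECAM1 at 0.0568 to 0.199 and 2.64 to 4.99 CPM. In such bulk RNA fewer cells of a kind and less RNA per cell cannot be told apart.

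BMS-986158 lowered weakly expressed genes far more often than it raised them, whereas among strongly expressed genes small increases were the more frequent call. Of 16713 genes tested, 2561 (15.3%) were called higher and 3076 (18.4%) lower at an adjusted p under 0.05. At a 2-fold change or more the calls were 373 higher (2.23%) and 1809 lower (10.8%). Among the 3560 genes with a mean log2 CPM under 0, 2.33% were called higher and 19.5% lower. Among the 3747 genes with a mean log2 CPM of 6 or more, 25.8% were called higher and 11.7% lower, but 0.614% rose and 1.87% fell by 2-fold or more. With RLE, upper-quartile or library-size scaling the calls over all genes were 2110 higher and 3361 lower, 2171 and 3316, and 2024 and 3359. In the same 3 scalings the most read genes were called higher for 20.9%, 22.2% and 20.5% and lower for 13.9%, 13.9% and 14.5%. Of 2096 long intergenic and antisense RNAs, 81 were called higher and 229 lower. Both are smaller shares than over all genes (15.3% and 18.4%). The 3 treated values all lay above the 3 vehicle values for 22.9% of genes and all below for 23.7%. Of the genes called with all 3 vehicle libraries, 2113 of the 2561 higher and 2686 of the 3076 lower were called in the same direction without DMSO replicate 3. Against DMSO replicate 3 alone, 1253 and 1523 were.

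**Figure D1:**
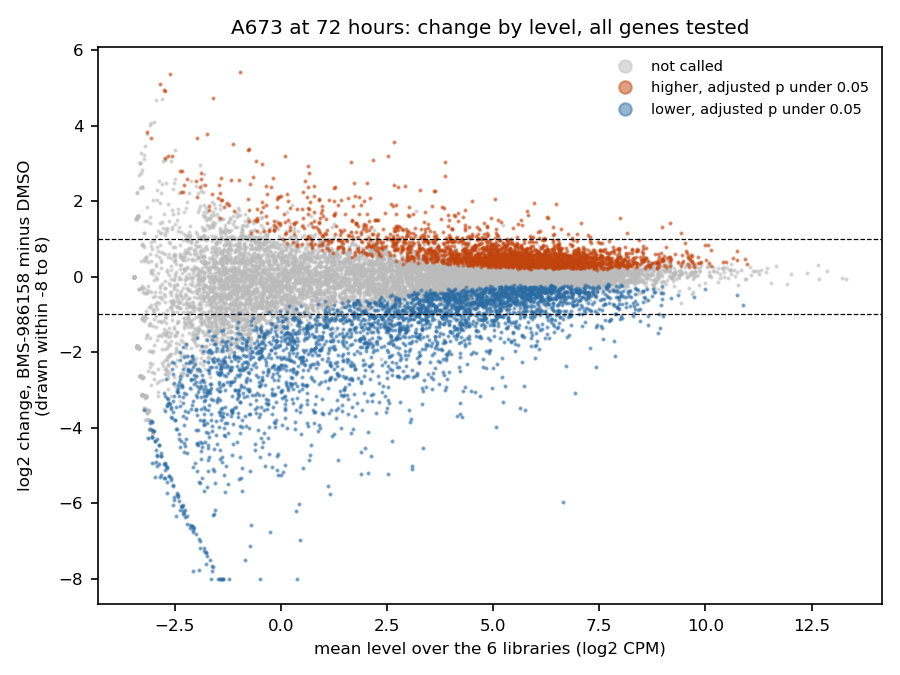
Each point is 1 of the 16713 genes tested; the horizontal axis is its mean level over the 6 libraries (log2 CPM) and the vertical axis its log2 change, BMS-986158 minus DMSO, with dashed lines at a 2-fold change. Calls of 2-fold or more lie mostly below 0 and at low levels (1809 lower and 373 higher), while calls among the most read genes are small and mostly above 0.

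The 12 genes with the highest log2 changes were called higher with all 3 vehicle libraries, without DMSO replicate 3 and against it alone. RTN1, a reticulon of the endoplasmic reticulum in neuroendocrine cells (chr14:59595976-59870966 in GENCODE 29 on GRCh38, minus strand), had 27.0, 26.1 and 26.9 CPM under BMS-986158 and 5.71, 5.62 and 5.21 CPM under DMSO. All treated values lay above all vehicle values, which was a condition for choosing these 12 genes and held for 22.9% of all genes. The vehicle libraries, replicate 3 included, were close together. The log2 change was 2.28 ± 0.18 (SE, n = 3 each, adjusted p = 6.73e-10). ITGA6, the integrin subunit alpha 6 of laminin receptors (chr2:172427354-172506282, plus strand), had 20.7, 22.8 and 20.8 CPM in treated cells and 4.89, 4.95 and 3.24 CPM in vehicle cells. The groups did not overlap, and DMSO replicate 3 was the lowest library. Its log2 change was 2.30 ± 0.29 (adjusted p = 9.92e-07). NEFL, the light neurofilament subunit, changed by 2.39, AMPH, the endocytosis protein amphiphysin, by 2.42, and KIF5C, a neuronal kinesin heavy chain, by 2.26. STOX1, a winged-helix protein, changed by 2.49 and DHRS2, a short-chain dehydrogenase, by 2.38. The remaining members of this group were EFR3B, SIPA1L2, CHST2, CD24 and H2BC5, at 2.65 to 3.57.

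Among genes with many reads, the increases were smaller but the replicates were close. ITM2C, a membrane protein of the BRICHOS family (chr2:230864639-230879248, plus strand), had 761.6, 825.6 and 786.2 CPM in treated cells and 318.5, 336.2 and 308.1 CPM in vehicle cells. The 2 groups were far apart and DMSO replicate 3 lay with the other vehicle libraries. The log2 change was 1.30 ± 0.09 (adjusted p = 7.1e-11). AGRN, the heparan sulphate proteoglycan agrin of basement membranes (chr1:1020123-1056118, plus strand), had 873.7, 970.5 and 968.8 CPM under BMS-986158 and 304, 324.1 and 430.1 CPM under DMSO. Treated values were again all higher, and DMSO replicate 3 was the vehicle library nearest to them. Its log2 change was 1.41 ± 0.17 (adjusted p = 7.78e-07). PEG10, an imprinted gene derived from a retrotransposon, changed by 1.16, FSTL1, a secreted follistatin-like protein, by 1.15 (0.98, adjusted p = 0.189, against DMSO replicate 3 alone) and DCXR, a xylulose reductase, by 1.06. VGF, a neurosecretory protein, had a log2 change of 1.55 (adjusted p = 0.012), with 469.2, 465.8 and 443.4 CPM in treated cells and 232.1, 173.8 and 66.1 CPM in vehicle cells. Without DMSO replicate 3 the change was 1.18 and no longer passed the threshold.

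The largest decrease among well-read genes was that of MMP1, interstitial collagenase (chr11:102789920-102798160, minus strand). MMP1 had 17.0, 14.7 and 12.01 CPM in BMS-986158 libraries and 1404, 1119 and 205.5 CPM in DMSO libraries. All treated values lay below all vehicle values, which was a condition for choosing the 12 lowest genes and held for 23.7% of all genes. DMSO replicate 3 was far below the other vehicle libraries. The log2 change was -5.98 ± 0.76 (adjusted p = 4.15e-06), -6.45 without DMSO replicate 3 and -3.83 against it alone. APELA, a peptide ligand of the apelin receptor (chr4:164877004-164898965, plus strand), had 1.65, 1.27 and 1.11 CPM under BMS-986158 and 25.6, 30.4 and 25.0 CPM under DMSO. Here DMSO replicate 3 did not stand apart and the groups were well separated. The log2 change was -4.36 ± 0.31 (adjusted p = 1.95e-10). CACNA1I, a T-type calcium channel, had 1.31, 2.51 and 2.67 CPM in treated cells and 30.4, 30.8 and 34.0 CPM in vehicle cells, again without overlap and with the vehicle libraries together. SCNN1G, the gamma subunit of the epithelial sodium channel, changed by -4.54, and C3, complement component 3, by -4.10. LAMB3, CHAC1, ADM2, SPX, SYTL1, PCK2 and MBD3L3 made up the rest of the 12 lowest, at -3.77 to -5.23; MBD3L3 has near-identical copies and its counts are uncertain. TNC, the matrix protein tenascin-C, had 296.1, 278.5 and 280.7 CPM in treated cells and 901.1, 859.8 and 641.1 CPM in vehicle cells, a log2 change of -1.49 ± 0.38 (adjusted p = 0.00439). TNC (-1.17, adjusted p = 0.127) and SYTL1 (-1.24, adjusted p = 0.0527) lost their calls against DMSO replicate 3 alone. SLC26A2, a sulphate transporter, changed by -1.03.

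**Figure D2:**
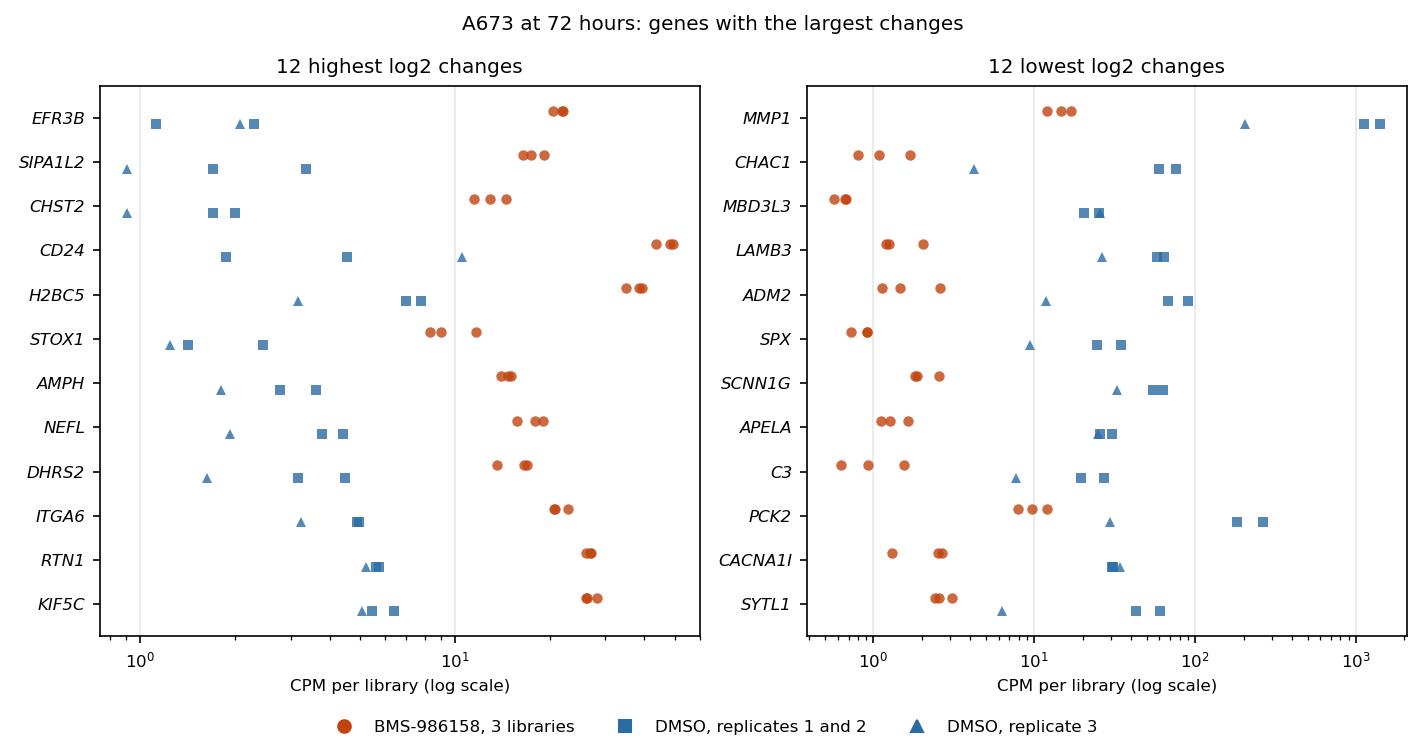
The panels show the 12 genes with the highest and the 12 with the lowest log2 changes; each point is 1 library, placed by its CPM on a log axis, with BMS-986158 circles above the DMSO squares (replicates 1 and 2) and triangle (replicate 3). Treated and vehicle values do not overlap for any of the 24 genes, a condition of their selection, and for MMP1, CHAC1, ADM2, PCK2 and SYTL1 the DMSO replicate 3 triangle lies well below the vehicle squares.

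Genes of the BET and P-TEFb machinery rose or did not pass the test. Of 14 members tested, 5 were called higher and 0 lower, with a median log2 change of 0.25 against -0.02 over all genes. The fit without DMSO replicate 3 called 6 higher, and that against it alone 3. HEXIM1, which sequesters P-TEFb and is widely read as a marker of BET inhibition (chr17:45148502-45152101, plus strand), had 84.2, 86.8 and 92.6 CPM under BMS-986158 and 44.7, 45.5 and 37.1 CPM under DMSO. The groups did not overlap and each was tight. Its log2 change was 1.05 ± 0.12 (adjusted p = 1.31e-07), and it was 0.97 without DMSO replicate 3 and 1.25 against it alone. BRD2 changed by 0.72 ± 0.09 (adjusted p = 1.11e-06), LARP7, a component of the inactive P-TEFb complex, by 0.64, CDK9, its kinase, by 0.43 and BRD3 by 0.39. CDK9 (0.27, adjusted p = 0.0818) and BRD3 (0.18, adjusted p = 0.266) lost their calls against DMSO replicate 3 alone. Of 8 genes listed as markers of BET inhibition, 7 were called higher (87.5%, against 15.3% of all genes) and 0 lower. They were listed with earlier results of these libraries known, so this share is no independent support. The member not called was TXNIP, with 230.2, 203.7 and 183.0 CPM in treated cells and 241.0, 212.8 and 42.7 CPM in vehicle cells. Its log2 change was 0.31 (adjusted p = 0.717). The lists overlap: HEXIM1 is also counted above, and H2BC5, H2BC12 and H2BC21 also among the histone genes below. SERPINI1, the inhibitor neuroserpin, was at 6.31, 5.82 and 4.07 CPM in treated cells and 0.942, 1.33 and 0.792 CPM in vehicle cells, with no overlap and a log2 change of 2.38.

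Histone genes with polyadenylated reads were the list with the highest median log2 change, 1.57. Of 14 tested, 11 were called higher and 1 lower (78.6% and 7.14%, against 15.3% and 18.4% of all genes). Without DMSO replicate 3 the counts were 11 and 1. Against DMSO replicate 3 alone 8 were called higher. H2AC6, a core histone H2A gene, had 51.6, 41.0 and 43.4 CPM in treated cells and 12.3, 11.3 and 10.4 CPM in vehicle cells. The treated libraries were all above the vehicle libraries, which lay close together. The log2 change was 2.00 ± 0.27 (adjusted p = 4.32e-06). H2AJ was the 1 gene called lower, at -0.62, a call kept without DMSO replicate 3 and lost without any 1 of the other 5 libraries. Core histone genes are similar in sequence and their counts may be shared between copies.

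MYC, often lowered by BET inhibitors in blood cancers, was higher here. It had 305.4, 324.0 and 328.0 CPM under BMS-986158 and 242.8, 244.5 and 213.2 CPM under DMSO. The groups did not overlap. The log2 change was 0.45 ± 0.10 (adjusted p = 0.00091), and 0.39 without DMSO replicate 3. Of the 13 genes of the MYC, MAX and MXD network tested, 5 were called higher and 2 lower. Those shares were 38.5% and 15.4%, against 15.3% and 18.4% of all genes. MAX, the dimer partner of MYC, changed by 0.63, and MXD4 and MXD1, which compete with MYC for MAX, changed by 0.98 and 0.76. MLXIPL, the glucose-responsive factor ChREBP, was called lower at -2.07, but its change was -0.79 (adjusted p = 0.386) against DMSO replicate 3 alone.

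Among genes that EWS::FLI1 is known to activate, most calls were decreases, while genes it is known to repress gave few calls in either direction. Of 31 activated targets tested, 17 were called lower and 2 higher (54.8% and 6.45%), with a median log2 change of -0.78, or -0.73 with the 1 gene at 0 in a group set to its bound. Without DMSO replicate 3, 16 were lower and 1 higher, and against it alone 15 and 1. Of 20 repressed targets, 2 were called higher and 2 lower (10.0% each), with a median of -0.02. The shares over all genes were 15.3% higher and 18.4% lower. LOXHD1 had 7.79, 9.76 and 8.48 CPM in BMS-986158 libraries and 89.5, 85.6 and 57.5 CPM in DMSO libraries. PPP1R1A, a phosphatase inhibitor, had 13.8, 15.6 and 16.9 CPM in treated cells and 52.7, 60.1 and 65.1 CPM in vehicle cells. Both genes were lower in every treated library than in any vehicle library, with log2 changes of -3.16 and -1.94. GLI1, the Hedgehog pathway factor, changed by -1.83 ± 0.34, and SOX6 by -1.16 ± 0.16. CCND1, which encodes cyclin D1, had 1410 to 1478 CPM in treated cells and 1930 to 2184 CPM in vehicle cells, a log2 change of -0.48 ± 0.14 (adjusted p = 0.00826). ID2 and RBM11 were the 2 called higher, at 0.49 and 0.29, but RBM11 lost its call in 5 of the 6 fits that left out 1 library. NR0B1, a target used to follow the fusion, had 219.8, 222.0 and 213.4 CPM in treated cells and 321.3, 306.5 and 125.0 CPM in vehicle cells. Its groups overlapped only through DMSO replicate 3, and its log2 change was -0.20 ± 0.31 (adjusted p = 0.66), or 0.81 (adjusted p = 0.166) against that library alone. FLI1, whose reads include those of the 3′ part of the fusion, changed by 0.27 ± 0.09 (adjusted p = 0.0214). That call was lost without treated replicate 3, without DMSO replicate 1 or 2, and against DMSO replicate 3 alone (0.14, adjusted p = 0.49).

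Both ligands of insulin-like growth factor (IGF) signalling fell, and so did a protease that releases them. In this pathway IGF1 and IGF2 signal through IGF1R, binding proteins hold the ligands, the protease PAPPA cleaves IGFBP4 to free them, and STC2 inhibits PAPPA. IGF1 (chr12:102395874-102481744, minus strand) had 3.52, 3.35 and 3.79 CPM under BMS-986158 and 23.2, 28.9 and 30.7 CPM under DMSO. PAPPA (chr9:116153804-116402322, plus strand) had 14.2, 13.8 and 17.1 CPM under BMS-986158 and 135, 155 and 218.4 CPM under DMSO. For both genes the groups were far apart, and DMSO replicate 3 was the highest library. The log2 changes were -2.95 ± 0.21 (adjusted p = 7.96e-11) and -3.49 ± 0.27 (adjusted p = 1.04e-09). IGF2 was near the detection limit in treated cells, at 0.114, 0.199 and 0.0607 CPM, and at 4.95, 4.33 and 3.28 CPM in vehicle cells. IGFBP4 had 5.74, 5.14 and 5.04 CPM in treated cells and 28.9, 31.2 and 24.3 CPM in vehicle cells, a log2 change of -2.42 ± 0.17. STC2 changed by -3.06, INSR, the insulin receptor, by -0.75 and IRS1, a receptor adaptor, by -0.52. IGFBP2 was the 1 member called higher, with 1271, 1427 and 1388 CPM in treated cells and 810.5, 777.9 and 691.6 CPM in vehicle cells. Of 21 members tested, 10 were called lower and 1 higher (47.6% and 4.76%, against 18.4% and 15.3% of all genes). The difference in response between A673 and the mean of CHLA10 and TC32 passed the test for IGFBP4 (-2.18, adjusted p = 3.73e-08) and PAPPA (-1.53, adjusted p = 0.00125) and did not for IGF1 (0.31, adjusted p = 0.418).

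**Figure D3:**
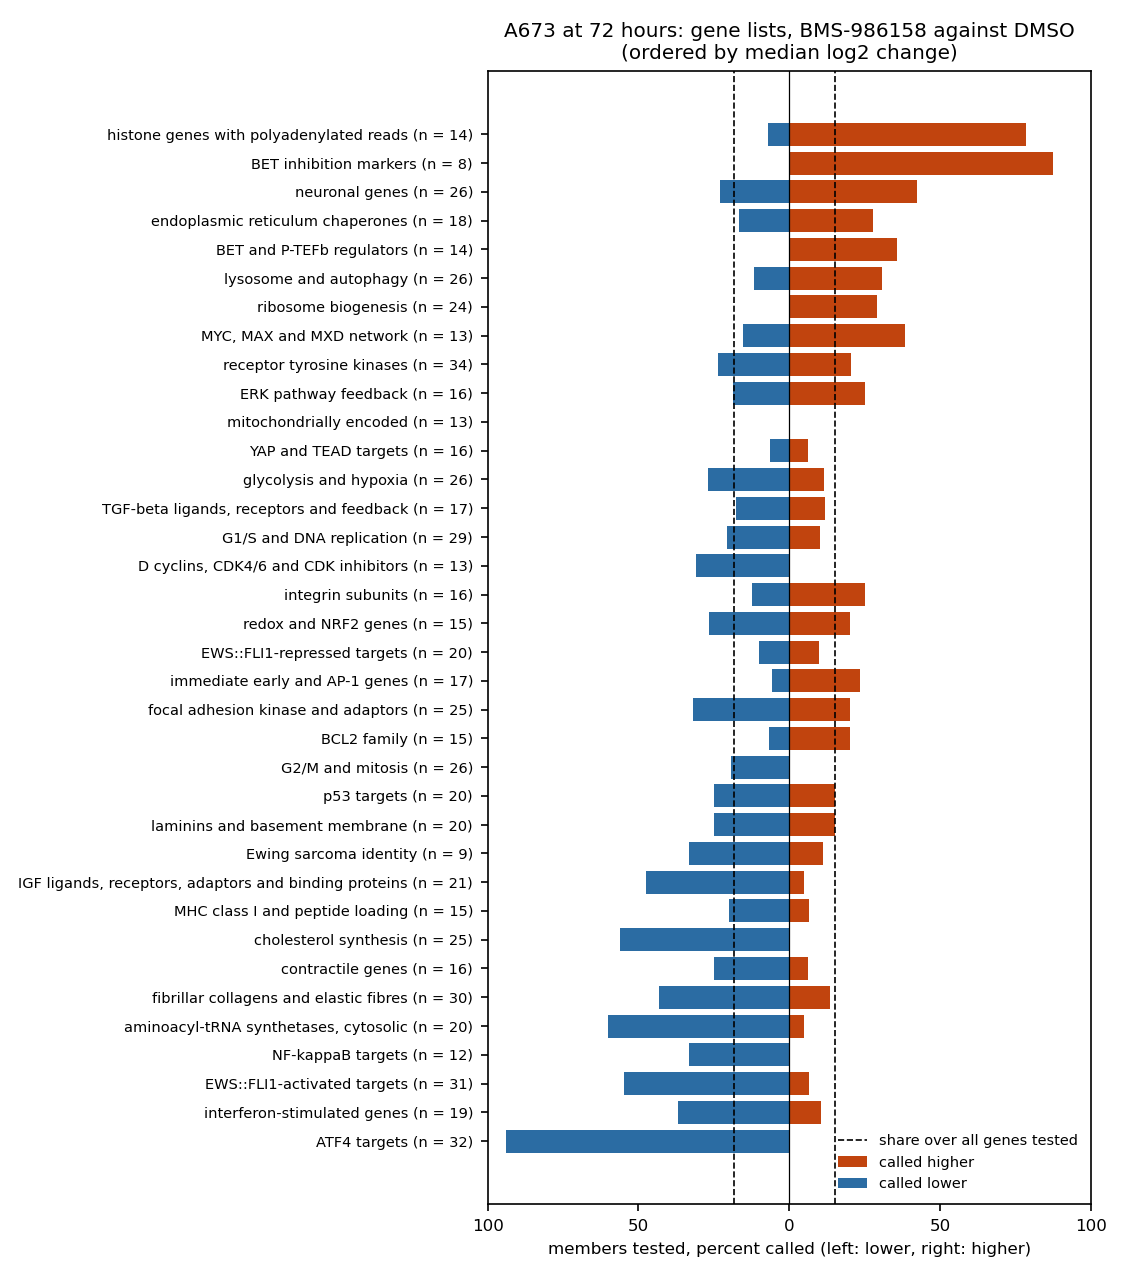
Bars give, for each gene list with at least 8 members tested, the percentage called higher (right) and lower (left) under BMS-986158, ordered by median log2 change, with dashed lines at the shares over all genes tested (15.3% higher and 18.4% lower). ATF4 targets stand at the bottom with 30 of 32 called lower, and histone genes at the top with 11 of 14 called higher.

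Targets of ATF4 fell almost without exception, to an extent that depended on the vehicle library. ATF4 is the transcription factor of the integrated stress response. It is induced when amino acids are scarce or the endoplasmic reticulum is stressed, and it drives amino acid synthesis, amino acid import and tRNA charging. Of 32 targets tested, 30 were called lower (93.8%, against 18.4% of all genes) and 0 higher, with a median log2 change of -1.42. The 2 others were ATF3, at -0.59 (adjusted p = 0.298), and PPP1R15A, a phosphatase subunit of the response, at 0.12 (adjusted p = 0.805). The summed level of the list was 2689, 2681 and 2695 CPM in the treated libraries and 9984, 7730 and 3482 CPM in the vehicle libraries. The treated libraries were nearly equal, the vehicle libraries spread widely, and DMSO replicate 3 lay nearest to the treated ones. Without DMSO replicate 3, 30 were called lower, with a median of -1.75. Against DMSO replicate 3 alone, 13 were called lower and 1 higher, with a median of -0.36. The list was gathered with earlier results of these libraries known.

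ATF4 itself (chr22:39519695-39522685, plus strand) had 353.4, 358.3 and 353.6 CPM under BMS-986158 and 939.0, 795.1 and 376.9 CPM under DMSO. The treated values were below all vehicle values, but DMSO replicate 3 was only just above them. Its log2 change was -0.99 ± 0.18 (adjusted p = 0.000127), -1.29 without DMSO replicate 3, and -0.09 (adjusted p = 0.714) against it alone. ASNS, which makes asparagine, had 90.7, 87.2 and 90.7 CPM in treated cells and 767.3, 565.4 and 81.8 CPM in vehicle cells. Here DMSO replicate 3 fell below the treated libraries, so the groups overlapped, and the log2 change of -2.40 ± 0.41 became 0.13 (adjusted p = 0.643) against it alone. SESN2, a nutrient-sensing sestrin, changed by -1.30, by -0.65 (adjusted p = 0.136) without DMSO replicate 1, and by 0.81 (adjusted p = 0.0111) against DMSO replicate 3 alone.

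Some other targets, ATF5, TRIB3 and ALDH1L2 among them, were lower in every treated library than in any vehicle library. ATF5, a related factor, had 42.7, 48.3 and 47.7 CPM in treated cells and 596.9, 444.5 and 125.6 CPM in vehicle cells, a log2 change of -3.07 ± 0.32 (adjusted p = 3.01e-07). TRIB3, a pseudokinase induced by ATF4, had 17.1, 18.4 and 19.8 CPM in treated cells and 393.1, 199.8 and 51.0 CPM in vehicle cells. ALDH1L2, a mitochondrial folate enzyme, had 1.76, 1.16 and 1.32 CPM in treated cells and 25.6, 19.1 and 6.90 CPM in vehicle cells. For these 3 genes the groups did not overlap, and DMSO replicate 3 was again the lowest vehicle library. They were also called lower against DMSO replicate 3 alone, at -1.44, -1.46 and -2.31. The serine pathway enzymes PSAT1, PSPH, PHGDH and SHMT2 changed by -2.10, -1.47, -1.03 and -0.73, and the mitochondrial folate enzyme MTHFD2 by -1.36. Set against DMSO replicate 3 alone, PSAT1 kept its call at -0.47, whereas PSPH (-0.36, adjusted p = 0.105), PHGDH (-0.35, adjusted p = 0.0647), SHMT2 (-0.17, adjusted p = 0.324) and MTHFD2 (-0.16, adjusted p = 0.636) lost theirs. The amino acid transporter genes SLC7A11, SLC7A5, SLC7A1, SLC3A2 and SLC1A5 changed by -1.54, -1.36, -1.28, -1.10 and -1.04. SLC7A11 (-1.20) and SLC7A1 (-0.70) kept their calls against DMSO replicate 3 alone, and SLC7A5 (-0.51, adjusted p = 0.29), SLC3A2 (-0.19, adjusted p = 0.681) and SLC1A5 (-0.22, adjusted p = 0.504) lost theirs. NUPR1, a stress-induced chromatin protein, had no counts in treated cells and 3.06, 0.790 and 0 CPM in vehicle cells. With the treated group set to its floor of 3 counts, it was at least 39.4-fold below the vehicle mean. DMSO replicate 3 had no counts either, so that fold rests on DMSO replicates 1 and 2.

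**Figure D4:**
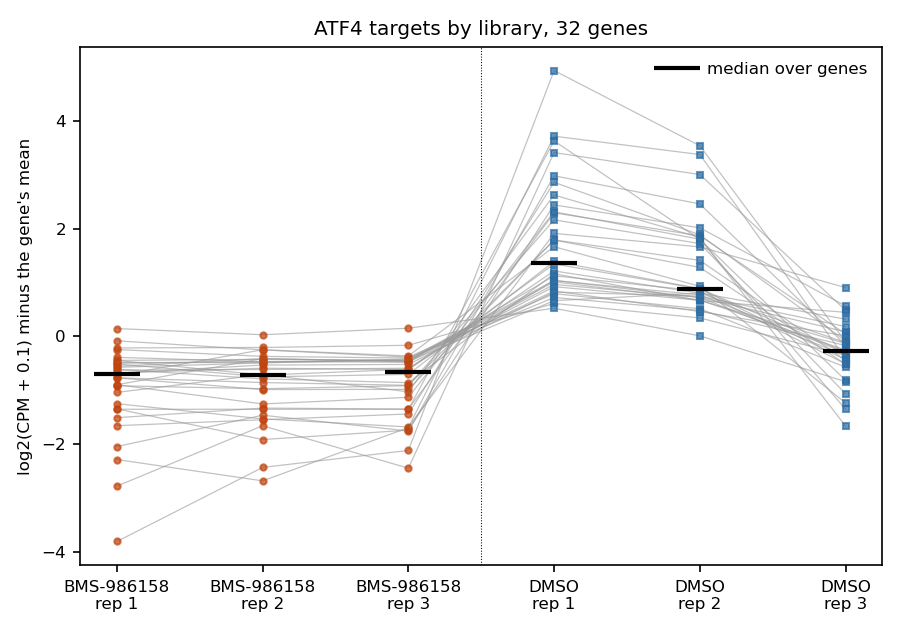
Each line is 1 of the 32 ATF4 targets tested, drawn across the 3 BMS-986158 libraries and the 3 DMSO libraries as log2(CPM + 0.1) minus the gene's mean, with black bars at the median over genes. The medians are -0.71, -0.72 and -0.66 in treated libraries and 1.37, 0.88 and -0.28 in vehicle libraries, so DMSO replicate 3 lies nearer to the treated libraries than to the other vehicle libraries.

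The C/EBP-ATF response element, to which ATF4 binds with a C/EBP partner, was searched in RefSeq promoter windows (GRCh38.p14, 250 bases before to 50 after each start) as TGATGNAA on either strand. Of 28 ATF4 targets with a window, 9 held it (32.1%), and of 25 called lower, 7 did (28.0%). Among all genes 1217 of 27305 held it (4.46%). Genes can have several windows, and by window the shares were 20.0% of 45 for the targets and 3.62% of 35116 in all. The list was made of ATF4 targets, so its share does not bear on the response to BMS-986158. The 250 bases before the start are shown for 4 targets that were called lower and hold the motif there, with the motif in capitals, read 5′ to 3′ along each gene's strand. CHAC1 lies at chr15:40953221-40953470 (plus strand) with the motif on the opposite strand, ASNS at chr7:97872409-97872658 (minus strand), SLC1A5 at chr19:46784815-46785064 (minus strand) and CEBPG at chr19:33373863-33374112 (plus strand).
CHAC1: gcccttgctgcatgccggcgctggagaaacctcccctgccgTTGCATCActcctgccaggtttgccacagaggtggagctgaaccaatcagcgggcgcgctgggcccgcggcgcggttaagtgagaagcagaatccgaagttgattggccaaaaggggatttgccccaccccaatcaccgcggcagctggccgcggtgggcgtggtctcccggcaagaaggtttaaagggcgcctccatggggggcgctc
ASNS: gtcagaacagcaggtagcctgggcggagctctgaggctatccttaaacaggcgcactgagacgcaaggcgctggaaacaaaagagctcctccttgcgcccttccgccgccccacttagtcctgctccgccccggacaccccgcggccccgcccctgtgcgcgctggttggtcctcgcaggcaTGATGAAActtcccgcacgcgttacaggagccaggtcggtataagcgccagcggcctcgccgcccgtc
SLC1A5: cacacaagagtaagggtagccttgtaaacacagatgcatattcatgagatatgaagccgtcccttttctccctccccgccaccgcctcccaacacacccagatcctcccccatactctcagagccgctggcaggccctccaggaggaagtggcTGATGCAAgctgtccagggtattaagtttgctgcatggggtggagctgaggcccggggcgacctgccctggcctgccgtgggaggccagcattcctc
CEBPG: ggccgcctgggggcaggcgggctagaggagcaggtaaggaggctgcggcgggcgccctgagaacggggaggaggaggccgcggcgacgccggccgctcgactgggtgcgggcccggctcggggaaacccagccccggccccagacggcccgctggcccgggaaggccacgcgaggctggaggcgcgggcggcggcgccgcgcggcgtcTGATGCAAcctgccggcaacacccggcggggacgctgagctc
CHAC1, which breaks down glutathione, had 1.08, 0.797 and 1.68 CPM in treated cells and 75.6, 59.7 and 4.22 CPM in vehicle cells. SLC1A5, a glutamine transporter, had 183.8, 183.7 and 188.9 CPM in treated cells and 519.7, 411.1 and 215.7 CPM in vehicle cells. CEBPG, a C/EBP partner of ATF4, had 71.1, 67.2 and 68.7 CPM in treated cells and 167.1, 128.3 and 93.8 CPM in vehicle cells. In all 3 the groups did not overlap and DMSO replicate 3 was the vehicle library nearest to the treated ones. CHAC1 changed by -5.23 and CEBPG by -0.91, and against DMSO replicate 3 alone CHAC1 kept its call at -1.78 while CEBPG did not (-0.44, adjusted p = 0.061). A match of these letters is a description of the window and was not tested as a binding site.

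Cytosolic aminoacyl-tRNA synthetases, which charge tRNAs with amino acids, showed the same dependence on the vehicle library. Of 20 tested, 12 were called lower and 1 higher (60.0% and 5.0%, against 18.4% and 15.3% of all genes). The median log2 change was -0.53. When DMSO replicate 3 was left out, 14 were lower and 1 higher (median -0.75), and against it alone 3 were lower and 0 higher (median -0.12). AARS1, for alanine, had 260.8, 264.1 and 263.1 CPM in treated cells and 807.6, 725.4 and 378.9 CPM in vehicle cells. GARS1, for glycine (chr7:30594681-30634033, plus strand), had 257.4, 252.6 and 242.1 CPM in treated cells and 830.1, 625.5 and 228.9 CPM in vehicle cells. AARS1 did not overlap between groups, whereas GARS1 did through DMSO replicate 3. The log2 changes were -1.28 ± 0.15 and -1.16 ± 0.24, and against DMSO replicate 3 alone they were -0.53 (adjusted p = 0.00178) and 0.13 (adjusted p = 0.576). RARS1, for arginine, was the 1 called higher, at 0.47, or 0.20 (adjusted p = 0.332) against DMSO replicate 3 alone. Of 18 endoplasmic reticulum chaperones and stress genes tested, 5 were called higher and 3 lower. These were 27.8% and 16.7%, against 15.3% and 18.4% of all genes. Without DMSO replicate 3 the counts were 5 and 4. The median log2 change was 0.26, and 0.18 against DMSO replicate 3 alone. MANF, a secreted stress-response factor, was called higher at 0.60 and EDEM1, which directs misfolded proteins to degradation, lower at -0.54, and both kept their calls against DMSO replicate 3 alone. The folding factors HSPA5 and CALR were called higher at 0.52 and 0.38, but lost their calls in 5 and 4 of the 6 fits that left out 1 library. XBP1 and HERPUD1 were called lower at -1.34 and -1.06. Against DMSO replicate 3 alone HSPA5 was at 0.26, CALR at 0.18 and XBP1 and HERPUD1 at -0.11 and -0.11, with no call.

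The level of the ATF4 targets in other groups places these libraries. Their summed level was 2268 to 3301 CPM under BMS-986158 and 4730 to 4979 CPM under DMSO in CHLA10 at 3 days, and 2359 to 2616 CPM under BMS-986158 and 3268 to 3373 CPM under DMSO in TC32. In A673 at 20 days it was 2353 to 3017 CPM under BMS-986158 and 3994 to 4203 CPM under DMSO. A673 DMSO replicates 1 and 2 at 3 days were thus above every other library of the series, and DMSO replicate 3 lay within the range of the other vehicle libraries. The medians over the list were -1.42 in A673, -0.41 in CHLA10 and -0.44 in TC32. Against DMSO replicate 3 alone the A673 median was -0.36, near those of the other lines. With all 3 vehicle libraries, the A673 response differed from the mean of the other lines for 17 of the 32 targets. All 17 were lower in A673, against 9.85% of all genes.

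Cholesterol synthesis fell in part. SREBF2 encodes the factor that activates this pathway when sterols are low. Of 25 genes tested, 14 were called lower (56.0%, against 18.4% of all genes) and 0 higher, with a median log2 change of -0.48. Without DMSO replicate 3, 16 were lower and against it alone 6. MSMO1, a sterol demethylase, had 64.7, 52.0 and 48.9 CPM in treated cells and 114.7, 142.2 and 120.3 CPM in vehicle cells, a log2 change of -1.19 ± 0.22 (adjusted p = 0.000156). It was lower in each treated library than in any vehicle library, and DMSO replicate 3 did not stand apart. SREBF2 itself changed by -0.43 ± 0.11 (adjusted p = 0.00427), or -0.32 (adjusted p = 0.147) against DMSO replicate 3 alone. INSIG1, a sterol sensor that retains the pathway's activator, changed by -0.94, a call kept without DMSO replicate 3, and lost against it alone and in each fit that left out 1 of the other 5 libraries.

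Replication genes were called in both directions in A673, in numbers that depended on the vehicle library, and their response differed from that of the other lines. Of 29 genes of the G1/S transition and DNA replication, 3 were called higher and 6 lower in A673 (10.3% and 20.7%). Over all genes the shares were 15.3% and 18.4%. The median log2 change of the 29 was 0.00. The counts without DMSO replicate 3 were 8 higher and 6 lower (median 0.05), and 0 and 6 (median -0.15) against it alone. The median was -0.40 in CHLA10 and -0.78 in TC32. The difference between A673 and the mean of the other lines was called higher for 20 of the 29 and lower for 0, against 9.42% of all genes called higher. MCM5, a subunit of the replicative helicase, changed by -0.39 in A673 (-0.36, adjusted p = 0.0586, against DMSO replicate 3 alone), -1.001 in CHLA10 and -1.24 in TC32 (difference 0.73, adjusted p = 0.000132). CCNE2, a cyclin of the G1/S transition, had 9.61, 8.61 and 7.41 CPM in treated cells and 3.30, 3.74 and 5.77 CPM in vehicle cells. E2F2, an E2F factor, had 33.8, 40.4 and 37.7 CPM in treated cells and 70.5, 80.5 and 137.3 CPM in vehicle cells. Neither gene overlapped between groups, and DMSO replicate 3 was the highest vehicle library for both. E2F2 changed by -1.37 ± 0.18 and CCNE2 by 0.98 ± 0.25, the second being 0.56 (adjusted p = 0.264) against DMSO replicate 3 alone. Of 13 D cyclins, CDK4/6 genes and CDK inhibitors, 4 were called lower and 0 higher, and without DMSO replicate 3 4 and 2. Among these CDKN1C, the inhibitor p57, changed by -2.73, and CCND2 by -1.65, or -1.21 (adjusted p = 0.05) without DMSO replicate 1 and 0.13 (adjusted p = 0.899) against DMSO replicate 3 alone. Of 26 genes of G2/M and mitosis, 5 were called lower (19.2%, against 18.4% of all genes) and 0 higher, with a median of -0.09, and 3 lower against DMSO replicate 3 alone.

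Ribosome biogenesis genes, which process and assemble ribosomal RNA in the nucleolus, were called higher for 7 of 24 and lower for 0. Of all genes tested, 15.3% were called higher and 18.4% lower, against 29.2% and 0% of this list. The median log2 change of the list was 0.21. NOP56, a core protein of box C/D particles (chr20:2652145-2658393, plus strand), had 457.7, 458.5 and 464.0 CPM in treated cells and 281.9, 277.2 and 327.0 CPM in vehicle cells. NCL, nucleolin, had 1560, 1558 and 1578 CPM in treated cells and 1187, 1135 and 1255 CPM in vehicle cells. Both were higher in each treated library than in any vehicle library, with log2 changes of 0.64 ± 0.10 and 0.39 ± 0.10. The median was -0.33 in CHLA10 and -0.20 in TC32. The difference was called higher in A673 for 16 of the 24 and lower for 0, against 9.42% and 9.85% of all genes. RRP9, a protein of the U3 particle, differed by 1.07 (adjusted p = 0.000106), at 0.48 in A673, -0.71 in CHLA10 and -0.45 in TC32. In all, 9 of the 24 were called higher and 1 lower without DMSO replicate 3, and 2 and 1 against it alone. NCL (0.32, adjusted p = 0.125) and RRP9 (0.38, adjusted p = 0.195) were among those that lost the call in that last comparison.

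**Figure D5:**
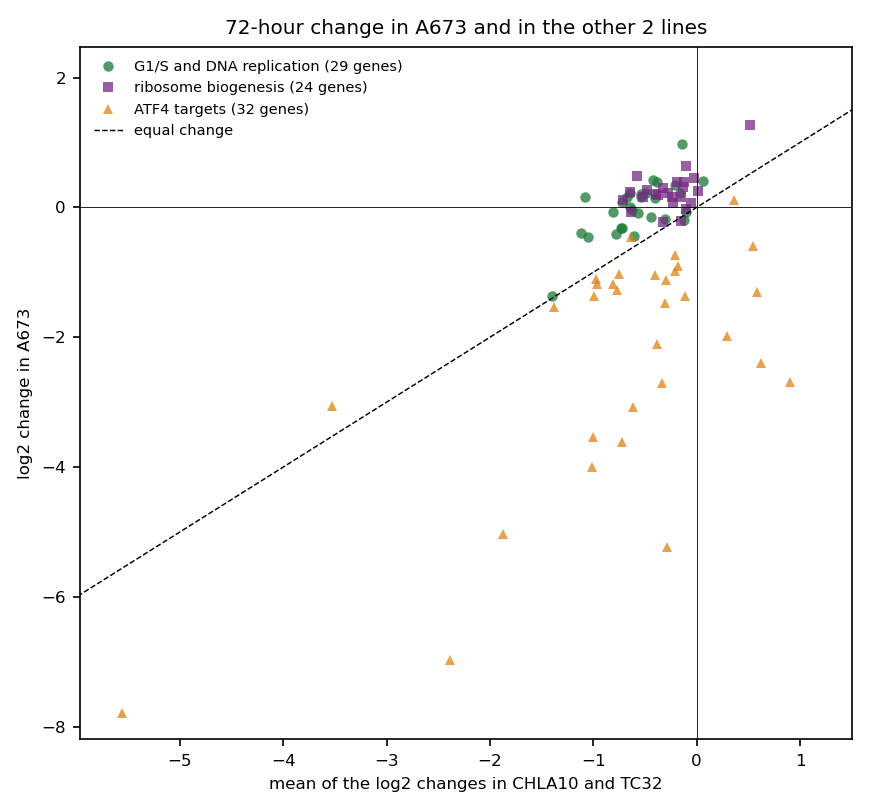
Each point is a gene of 3 lists; the horizontal axis is the mean of its log2 changes in CHLA10 and TC32 and the vertical axis its log2 change in A673, with a dashed line at equal change. Replication and ribosome genes lie mostly above the line (20 of 29 and 16 of 24 called different). ATF4 targets lie mostly below it (17 of 32). The A673 changes are from the fit with all 3 vehicle libraries. Against DMSO replicate 3 alone the median of the ATF4 targets was -0.36. The lowest point, NUPR1, has no counts in treated A673 cells and its fitted position is no bound.

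Matrix and adhesion genes moved in both directions. Of 30 fibrillar collagen and elastic fibre genes, 13 were called lower and 4 higher, with a median log2 change of -0.50. Those shares were 43.3% and 13.3%, against 18.4% and 15.3% of all genes. Leaving out DMSO replicate 3 gave 14 lower and 2 higher, and setting it as the one vehicle library 7 and 2. ELN, elastin (chr7:74027789-74069907, plus strand), had 41.7, 51.7 and 50.1 CPM in treated cells and 293.3, 309.8 and 136.3 CPM in vehicle cells. COL1A1, the main chain of type I collagen, had 119.4, 140.2 and 126.5 CPM in treated cells and 430.8, 454.7 and 366.7 CPM in vehicle cells. FBN1, the microfibril protein fibrillin-1, went the other way, with 91.0, 101.9 and 108.0 CPM in treated cells and 29.03, 28.7 and 38.8 CPM in vehicle cells. For these 3 genes the groups did not overlap. The log2 changes were -2.36 ± 0.42, -1.70 ± 0.28 and 1.64 ± 0.24. The FBN1 response differed from the mean of the other lines by 1.87 (adjusted p = 0.000147), and COL5A1, a collagen V chain, did by 1.11 with a change of 0.77 in A673, or 0.64 (adjusted p = 0.0894) against DMSO replicate 3 alone. MFAP4 and EMILIN1, both of elastic fibres, changed by -2.67 and -2.27.

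Among 20 laminin and basement membrane genes, 3 were called higher and 5 lower (25.0%, against 18.4% of all genes called lower). The counts were 2 and 3 without DMSO replicate 3, and 1 and 3 against it alone. LAMC1, the common laminin gamma 1 chain, had 450.0, 459.4 and 468.1 CPM in treated cells and 281.9, 275.4 and 313.8 CPM in vehicle cells, a log2 change of 0.66 ± 0.14. Among 16 integrin subunits, 4 were called higher and 2 lower (25.0% and 12.5%, against 15.3% and 18.4% of all genes). Their median log2 change was -0.01, and 0.01 against DMSO replicate 3 alone. ITGAV, a subunit of RGD-binding receptors, changed by 0.92 ± 0.17. LAMC1 (0.55, adjusted p = 0.0671) and ITGAV (0.64, adjusted p = 0.0559) lost their calls against DMSO replicate 3 alone. The ITGA6 response was -0.09 in CHLA10 and -0.65 in TC32, and its difference of 2.67 passed the test (adjusted p = 0.000534). PTK2 had 190.0, 174.8 and 181.8 CPM in treated cells and 194.2, 198.8 and 192.1 CPM in vehicle cells, a log2 change of -0.10 ± 0.09 (adjusted p = 0.413). Of 25 genes of the kinase and its adaptors, 5 were called higher and 8 lower (20.0% and 32.0%), and without DMSO replicate 3 5 and 5. SRC, its partner kinase, had 11.9, 13.7 and 15.7 CPM in treated cells and 33.0, 32.7 and 36.5 CPM in vehicle cells. TLN2, the integrin activator talin-2, had 59.8, 58.6 and 62.8 CPM in treated cells and 20.0, 16.8 and 29.4 CPM in vehicle cells. Neither overlapped between groups, and the log2 changes were -1.30 ± 0.13 and 1.45 ± 0.16. PTK2B, the related kinase PYK2, changed by -1.36 ± 0.20, and its difference from the other lines was -1.52 (adjusted p = 0.000121).

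Neuronal genes leaned higher without doing so throughout. Of 26 tested, 11 were called higher and 6 lower (42.3% and 23.1%, against 15.3% and 18.4% of all genes). The median log2 change was 0.44. Leaving out DMSO replicate 3 gave 9 and 5, and its use alone 7 and 5. INA, the neuronal filament internexin, had 182.8, 167.8 and 175.8 CPM in treated cells and 38.2, 38.0 and 63.5 CPM in vehicle cells. MAP2, a dendritic microtubule protein, had 3.52, 3.27 and 3.38 CPM in treated cells and 1.06, 0.583 and 0.226 CPM in vehicle cells. Both were higher in every treated library, by 1.91 ± 0.22 and 2.54 ± 0.36 on the log2 scale. SYT4, a synaptotagmin, and ELAVL3, a neuronal RNA-binding protein, were called lower at -3.75 and -1.95, both under 11 CPM in all libraries. DCX and ELAVL4 had no counts in treated cells and were also at 0 in 1 vehicle library each.

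Interferon-stimulated genes were called lower for 7 of 19 and higher for 2 (36.8% and 10.5%, against 18.4% and 15.3% of all genes). The median log2 change was -1.22. The counts were 6 lower and 2 higher without DMSO replicate 3 (median -0.86), and 1 and 1 against it alone (median -0.93). OAS3, a sensor of double-stranded RNA, had 6.54, 7.57 and 5.85 CPM in treated cells and 23.4, 35.5 and 54.7 CPM in vehicle cells. IFIT3 had 3.35, 2.95 and 3.22 CPM in treated cells and 9.01, 9.28 and 5.66 CPM in vehicle cells. The groups did not overlap for either, with log2 changes of -2.52 ± 0.45 and -1.33 ± 0.30; IFIT3 was at -0.83 (adjusted p = 0.147) against DMSO replicate 3 alone. IRF7, which regulates interferon genes, changed by 1.02 ± 0.28. Of 12 NF-kappaB targets, 4 were called lower and 0 higher, or 1 and 0 against DMSO replicate 3 alone, among them TNFAIP3, a feedback inhibitor, at -2.26. Most of these genes had few reads. The summed immune markers were lower as well, at 8.93 to 10.5 CPM in treated cells and 17.1 to 35.8 CPM in vehicle cells. That sum was mostly 1 gene, CD79A, at 22.7, 24.3 and 12.9 CPM in the vehicle libraries. CD79A also changed by -3.13 in CHLA10 and -1.93 in TC32. The part of such markers in the result was not tested.

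Lysosome and autophagy genes were called higher for 8 of 26 and lower for 3 (30.8% and 11.5%, against 15.3% and 18.4% of all genes). They were 9 and 5 without DMSO replicate 3, and 8 and 1 against it alone. PSAP, the precursor of the saposins, changed by 0.42 and lost its call without DMSO replicate 3 (adjusted p = 0.0796) and without treated replicate 1, whereas ULK1, a kinase that starts autophagy, changed by 0.65 ± 0.10 and NPC2, a cholesterol carrier, by 0.72 ± 0.13. TFEB, an activator of this programme, had 2.84, 2.79 and 1.98 CPM in treated cells and 12.3, 16.7 and 9.96 CPM in vehicle cells, a log2 change of -2.37 ± 0.27. Contractile genes were called lower for 4 of 16 and higher for 1, and against DMSO replicate 3 alone for 1 and 0. Receptor tyrosine kinases were called higher for 7 of 34 and lower for 8 (20.6% and 23.5%). The p53 targets were called higher for 3 of 20 and lower for 5. YAP and TEAD targets were called higher for 1 of 16 and lower for 1 (6.25% each). Over all genes the shares were 15.3% and 18.4%, so the YAP and TEAD shares lay below both. Whether the kinases or the p53 targets differed from all genes was not tested. Of the 13 mitochondrially encoded genes 0 were called by edgeR with all 3 vehicle libraries (0 at an unadjusted p under 0.05, 0 by DESeq2 and 1 by limma-voom), and 9 were called higher against DMSO replicate 3 alone.

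Many of the genes called in A673 were called the same way in at least 1 other line. Of the 2561 called higher, 1092 (42.6%) were also higher in CHLA10 and 1281 (50.02%) in TC32, 797 in both and 985 in neither. Of the 3076 called lower, 1270 (41.3%) were also lower in CHLA10 and 1439 (46.8%) in TC32, 855 in both and 1222 in neither. For comparison, 14.0% of all genes tested were called higher and 15.7% lower in CHLA10, and 22.3% and 22.8% in TC32. The difference between the A673 response and the mean of the other 2 was called higher for 1574 genes (9.42%) and lower for 1647 (9.85%). KCNE3, a potassium channel subunit (chr11:74454841-74467729, minus strand), had 124.2, 117.4 and 124.0 CPM in treated A673 cells and 34.3, 31.8 and 28.9 CPM in vehicle A673 cells. The groups were far apart and DMSO replicate 3 lay with its group. Its log2 change was 1.95 ± 0.19 in A673, -2.41 in CHLA10 and -4.46 in TC32.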

How the data were processed

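Poly(A) RNA libraries were sequenced as read pairs on an Illumina NovaSeq instrument, per the labels' protocols. The deposited values are raw counts per Ensembl gene made by the authors with FastQC, Trim Galore, STAR and DESeq2 on GRCh38, per the submitters' processing notes; their versions, the counting tool and the use of strand were not given in the sources used here. Overlapping and antisense genes, and near-identical copies such as KRT17 and histone genes, are therefore uncertain.

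Counts were tested with edgeR 4.0.16 in R 4.3.3. Genes were filtered by group with filterByExpr (16713 of 33538 kept) and scaled by TMM, and the 30 libraries of the series entered 1 robust quasi-likelihood model with a term for each group. The 3-day effect in A673, the effects in CHLA10 and TC32, and the A673 effect minus their mean were tested, with Benjamini-Hochberg adjustment over all genes tested and a call at adjusted p under 0.05. A standard error (SE) is the size of the log2 change over the root of its F statistic. CPM used TMM-scaled sizes; log2 CPM used a prior count of 2. Symbols came from a gene table (33113 genes) and coordinates from GENCODE 29 (33456 genes found); 2 listed histone genes were not found. Promoters came from RefSeq.

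The members and the 40 gene lists were chosen with earlier results of these data known. Named by rule were the 12 highest and 12 lowest called protein-coding genes (non-overlapping groups and a mean log2 CPM of 2 or more), the 6 most read with at least a 2-fold change in each direction, up to 4 called members per list, the 6 highest and 6 lowest differences from the other lines, and a fixed set with MYC, PTK2, BRD2, BRD3, HEXIM1, IGF1, IGF2, CCND1, ATF4, FLI1 and NR0B1; results of some genes that these rules pick are not shown. Further list members named for their role were chosen after their values were seen, and members under 1 CPM in both groups are counted but mostly not named. Replicate numbers were not used as pairs in the main fit. Correlations of same-numbered deviations were -0.049, 0.184 and -0.029, and those of differently numbered ones ran from -0.186 to 0.128. With 3 libraries a group, such values cannot decide whether the libraries were paired. No 2 libraries of a group agreed within counting noise (chi-square per gene 3.48 or more). In simulated counts 200 of 16481 genes were changed. Called were 49 of 50 lowered 4-fold, 42 of 50 lowered 2-fold, 40 of 50 raised 2-fold and 50 of 50 raised 4-fold. Of 16281 unchanged genes, 16 were called. The changed genes all had a mean log2 CPM above 2, and each gene's spread was taken from the trend over level. No library was made to stand apart. These rates therefore do not cover weakly read genes, or a vehicle group like that of A673 at 3 days. Alternatives were DESeq2 1.42.0, limma-voom (limma 3.58.1), other scalings and filters, fewer libraries, a replicate block, each replicate left out, and, added after seeing the data, DMSO replicate 3 as the one vehicle library. The floor for a group at 0 is 3 counts over the group and covers counting error only. Plots used matplotlib 3.10.9 in Python 3.11.15.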

Additional observations from a re-analysis of the deposited data

Results flagged for a closer look

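The A673 response differed from the mean response of CHLA10 and TC32, by an interaction contrast in edgeR with Benjamini-Hochberg adjustment, for 1574 genes higher in A673 and 1647 lower. The 6 highest and 6 lowest differences on the log2 scale are given with the change in each line. Their level rule used the 6 A673 libraries alone, so levels in CHLA10 and TC32 were not limited. SEs of the changes there ran from 0.20 (KCNE3 in CHLA10) to 2.22 (MNX1 in TC32). For ACOX2 they were 2.05 in CHLA10 and 2.18 in TC32. Differences with such SEs cannot be sized closely.

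KCNE3 differed by 5.38. CD24, a surface glycoprotein, differed by 4.52, at 3.03 in A673, 0.68 in CHLA10 (adjusted p = 0.168) and -3.66 in TC32 (adjusted p = 0.11). KRT17, a keratin with near-identical copies, differed by 3.93, at -2.40 in A673, -6.11 in CHLA10 and -6.55 in TC32. VAV1, a guanine nucleotide exchange factor of blood cells, differed by 3.82, at -1.68 in A673, -4.77 in CHLA10 and -6.22 in TC32; its A673 change was -0.94 (adjusted p = 0.269) against DMSO replicate 3 alone. ACTA2, smooth muscle actin, differed by 3.76, at -0.23 in A673 (adjusted p = 0.692), -4.52 in CHLA10 and -3.45 in TC32. EGFLAM, the matrix protein pikachurin, differed by 3.68, at -0.20 in A673 (adjusted p = 0.586), -3.02 in CHLA10 and -4.74 in TC32.

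ACOX2, a peroxisomal oxidase, differed by -6.08, at -3.13 in A673, 3.10 in CHLA10 (adjusted p = 0.277) and 2.80 in TC32 (adjusted p = 0.312), so neither change in the other lines passed. MNX1, a homeobox factor, differed by -6.01, at -0.60 in A673 (adjusted p = 0.361), 5.61 in CHLA10 (adjusted p = 0.0411) and 5.21 in TC32 (adjusted p = 0.0627); in A673 it had 9.26, 9.52 and 10.8 CPM in treated cells and 22.4, 18.2 and 4.45 CPM in vehicle cells, DMSO replicate 3 being the lowest. C3 differed by -4.97, at -4.10 in A673, -1.58 in CHLA10 (adjusted p = 0.0806) and 3.32 in TC32 (adjusted p = 0.193). CHAC1 differed by -4.94, at -5.23 in A673, -0.15 in CHLA10 (adjusted p = 0.884) and -0.42 in TC32 (adjusted p = 0.612), and its A673 change was -1.78 against DMSO replicate 3 alone. RIMS4, a synaptic protein, differed by -4.24, at 0.92 in A673 (0.70, adjusted p = 0.0557, without DMSO replicate 3), 3.98 in CHLA10 and 6.36 in TC32. CDK5R2, an activator of CDK5, differed by -4.07, at 1.02 in A673 (a call lost in 5 of the 6 fits that left out 1 library, at 0.80 with adjusted p = 0.156 without DMSO replicate 3), 4.06 in CHLA10 and 6.13 in TC32.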

How the results depend on the processing

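With each library left out in turn, genes called numbered 2035 to 2789 higher and 2381 to 3224 lower in A673, and 1178 to 1807 higher and 1065 to 1787 lower for the difference from the other lines; 1065 came without treated replicate 2. At adjusted p under 0.01 the counts were 1620 and 2062 in A673 and 768 and 737 for the difference. With a log2 change of at least 1 in size they were 373, 1809, 437 and 637. Against DMSO replicate 3 alone, 1789 genes were higher and 1947 lower, and of the values named by rule 119 of 180 stayed on their side of the threshold without a called value turning, 56 lost the call, and 5 that had been called changed sign: GARS1 0.13, ALDOC 0.13, SESN2 0.81, CCND2 0.13 and HRK 1.83. NR0B1, MNX1 and ACTA2, called in neither fit, also changed sign, to 0.81, 1.15 and 0.18. In the other alternatives 89.6% to 99.5% stayed. The cause was not tested. With a replicate block, 2894 genes were higher and 3069 lower in A673, and 1887 and 1768 for the difference. Scaling moved the median log2 change of all genes from -0.02 (TMM) to -0.06 or -0.07. Genes near 1 CPM rest on few reads, and losses there cannot be sized closely.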
